A study of Homo sapiens with 9 samples.

Results

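The interleukin-1 family ligands and receptors were followed in cultures of MDA-MB-231, a long-established line of human breast cancer cells, kept in 3 kinds of medium. The set held 10 genes of the 58735 in the deposited table, found by gene symbol: the ligands IL1A, IL1B, IL18 and IL33, the antagonist IL1RN, the receptors IL1R1, IL1R2, IL1RAP and IL1RL1, and the protease gene CASP1. Each was listed on 1 row. With a mean level of at least 0.5 FPKM (fragments per unit of gene length and sequencing depth) over all libraries, 7 of the 10 could be tested. IL1R2, IL1RL1 and IL33 lay below that limit and are given by level only.

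All libraries came from wild-type cells of the same line. In the TIS CM group (therapy-induced senescence, 3 libraries) the cells received medium conditioned by MDA-MB-231 cells in which senescence had been induced by 72 h of nocodazole, a microtubule-depolymerizing drug, at 100 ng/ml. In the Cont CM group (3 libraries) they received medium conditioned by non-senescent MDA-MB-231 cells, and in the No CM group (3 libraries) plain medium. The sample labels give 72 h of incubation and the design text 48 h. Messenger RNA was measured in the receiving cells, not cytokine protein in the medium. The labels do not say whether replicates were separate cultures, so p-values reflect only how far these libraries differ, and that spread may be technical.

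Interleukin-1 alpha and interleukin-1 beta bind the same receptor, encoded by IL1R1, which then recruits the accessory chain encoded by IL1RAP and signals through MYD88 and IRAK kinases to NF-kB and MAP kinases. The antagonist encoded by IL1RN occupies the receptor without signalling, and IL1R2 encodes a decoy that binds ligand but lacks the signalling domain. Caspase-1 cleaves the precursors of interleukin-1 beta and interleukin-18, whereas interleukin-1 alpha is active without that cleavage. Interleukin-1 alpha is known as an upstream inducer of the cytokines that senescent cells secrete, and IL1A and IL1B themselves respond to interleukin-1.

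The genes of the ligands IL1A (ENSG00000115008, 112773915 to 112784590), IL1B (ENSG00000125538, 112829751 to 112836903) and the antagonist IL1RN (ENSG00000136689, 113107214 to 113134016) lie in a cluster on chromosome 2 of hg38, IL1A and IL1B on the minus strand and IL1RN on the plus strand. The promoters of IL1A and IL1B are shown because these were the members whose levels moved together across the media. Each is the 250 bases before the gene's 5′-most RefSeq start (GRCh38.p14, minus strand, 5′ to 3′), with matches to the searched motifs in capitals.
IL1A, chr2:112784494-112784743: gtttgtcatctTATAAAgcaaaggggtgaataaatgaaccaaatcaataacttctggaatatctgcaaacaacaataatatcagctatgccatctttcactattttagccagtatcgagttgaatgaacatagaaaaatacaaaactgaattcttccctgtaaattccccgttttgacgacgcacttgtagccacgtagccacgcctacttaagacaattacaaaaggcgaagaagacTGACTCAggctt
IL1B, chr2:112836780-112837029: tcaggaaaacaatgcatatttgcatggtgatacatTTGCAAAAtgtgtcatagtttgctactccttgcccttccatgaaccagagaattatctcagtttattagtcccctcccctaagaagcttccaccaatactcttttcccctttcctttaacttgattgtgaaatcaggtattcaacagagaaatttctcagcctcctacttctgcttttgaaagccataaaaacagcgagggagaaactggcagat
Both strands were searched for the AP-1 motif, spelled TGANTCA, and for the C/EBP motif, spelled TTGCNNAA. The TATA motif was searched as TATAAA, also on both strands. The cyclic AMP response element (CRE) was searched as TGACGTCA, and the NF-kB site by its consensus. IL1A held an AP-1 match starting 12 bases before this start and a TATA match at 239 bases before it. The window of a second RefSeq start of IL1A, not shown, held AP-1 matches at 105 and 55 bases before that start and no TATA match. The match at 105 bases is the AP-1 site printed above. IL1B held a C/EBP match starting 215 bases before its start. Over 34943 RefSeq promoter windows of the same length, 6.59% held the AP-1 motif, 9.06% C/EBP, 10.8% TATA, 5.2% the NF-kB consensus and 1.63% CRE. A match is a run of letters, not a shown binding site. The gene ends in the deposited table lie inside both windows, so the position of the start depends on the annotation.

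Library depth was 32636708 to 39189036 fragments on genes, so that a single fragment of a 1 kb gene counted for 0.0255 to 0.0303 FPKM. The libraries of a group differed from one another by more than counting noise. Cont CM replicate 1 stood farthest from its group, with a chi-square per degree of freedom of 23.2 against replicate 2 and 17.2 against replicate 3, where the other pairs within groups had 3.57 to 11.6. In Cont CM replicate 2, GC content and gene length accounted for 17.7% of the variance in its deviations, against 0.639% to 5.77% elsewhere. Without Cont CM replicate 1, 1084 genes were called in TIS CM against Cont CM, and without replicate 2, 99, against 623 with all libraries, and IL1A and IL1B were called lower each time. All 5 mesenchymal markers checked (VIM, CD44, EGFR, AXL and CAV1) had means of at least 29.4 FPKM. Of 6 luminal epithelial markers, KRT8, EPCAM, GATA3 and CDH1 passed 0.5 FPKM, while the hormone receptor genes ESR1 and PGR had 0.00218 and 0.0012 FPKM. Summed, they reached 104 to 107 FPKM in TIS CM, 85.9 to 109 in Cont CM and 118 to 131 in No CM, and CDH1, the E-cadherin gene, averaged 0.438 FPKM in TIS CM, 0.299 in Cont CM and 1.17 in No CM. Of 8 leukocyte markers, which could mark cells that make IL1B, 2 passed 0.5 FPKM (CD14 and CSF1R), and PTPRC, ITGAM, SPI1 and CD3E had means of at most 0.0135 FPKM. The summed leukocyte level was 5.38 to 6.04 FPKM in TIS CM, 4.03 to 4.49 in Cont CM and 5.61 to 6.8 in No CM, lowest in the medium where IL1A and IL1B were highest. The part of these markers in the results was not tested. Fewer cells of a type and less RNA per cell cannot be told apart in such bulk libraries.

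**Figure D1:**
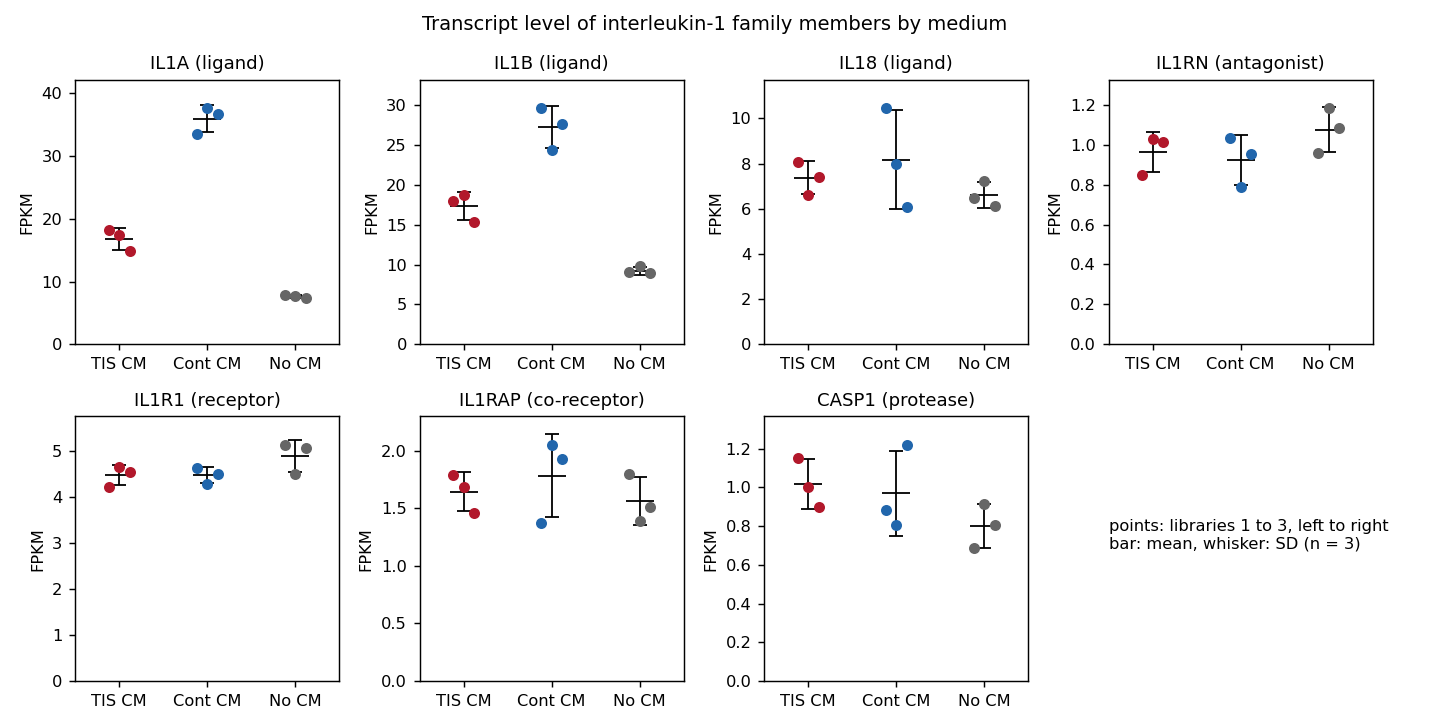
FPKM (vertical axes, from 0) of the 7 members above 0.5 FPKM in each library of TIS CM, Cont CM and No CM. Points are libraries, bars the mean and whiskers the SD (n = 3). The IL1A and IL1B points of the 3 groups do not overlap, with TIS CM between Cont CM and No CM. The other 5 genes overlap between at least one pair of groups.

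The comparison of TIS CM with Cont CM sets medium from nocodazole-treated, senescent conditioning cells against medium from non-senescent ones. Senescence of the conditioning cells and the drug treatment itself cannot be told apart in it. Transcripts of both interleukin-1 receptor agonists fell in TIS CM relative to Cont CM, while the antagonist, the signalling receptor chains, IL18 and CASP1 did not pass the test. IL1A had 18.2, 17.4 and 14.8 FPKM in the TIS CM libraries, against 33.5, 37.7 and 36.7 FPKM in Cont CM. Every TIS CM library lay below every Cont CM library. The difference was 2.11-fold, a log2 fold change of -1.08 with an SE of 0.08 (limma, adjusted p = 0.000675). These levels rested on 1369, 1339 and 1195 fragments in TIS CM and 2349, 2868 and 3055 in Cont CM.

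IL1B had 18, 18.7 and 15.4 FPKM in TIS CM, against 29.7, 24.4 and 27.7 FPKM in Cont CM. The groups again did not overlap, but their gap was narrower than for IL1A. Its level fell 1.55-fold, a log2 fold change of -0.64 with an SE of 0.09 (limma, adjusted p = 0.0122). Its adjusted p was 0.0599 without TIS CM replicate 1, and 0.0533 with limma on only the 2 groups compared, so a single library, or the spread taken from fewer libraries, ended this call. Of the 7 members tested, 2 were called lower and 0 higher, where 1.57% of all 13912 tested genes were called lower, 2.9% higher and 4.48% in either direction. Over all genes 404 were called higher and 219 lower, which became 284 higher and 395 lower with equal library sums and 310 higher and 273 lower with quantile normalization, and IL1A and IL1B were called lower under both. Among all tested genes, ordered from the most negative log2 fold change, IL1A ranked 8 and IL1B 60.

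Set against plain medium, both kinds of conditioned medium went with higher IL1A and IL1B. These comparisons share the No CM libraries with each other, and their conditioned libraries with the comparison of TIS CM with Cont CM. In No CM, IL1A had 7.88, 7.69 and 7.34 FPKM and IL1B 9.01, 9.79 and 8.9 FPKM, below every library of either conditioned medium. In Cont CM against No CM, IL1A rose 4.48-fold (2.16 on the log2 scale with an SE of 0.08, limma adjusted p = 2.19e-06) and IL1B 2.85-fold (1.51 with an SE of 0.09, adjusted p = 4.05e-05). Counted over the 7 tested members, 2 were higher and 0 lower, with 7.77% of all tested genes called higher, 8.56% lower and 16.3% in either direction. IL1A ranked 2 and IL1B 4 among the 13912 genes by log2 fold change from the top.

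In TIS CM against No CM, IL1A rose 2.12-fold (1.09 on the log2 scale with an SE of 0.08, limma adjusted p = 0.00186) and IL1B 1.83-fold (0.87 with an SE of 0.09, adjusted p = 0.00611). Here too 2 of the 7 were higher and 0 lower, where 0.403% of all tested genes were called higher, 0.453% lower and 0.855% in either direction. Over all genes 56 were higher and 63 lower, which became 28 higher and 106 lower with equal library sums, with IL1A and IL1B still called higher. By log2 fold change from the top IL1A ranked 14 and IL1B 23. On the FPKM scale, the excess over No CM in TIS CM was 9.2 FPKM for IL1A against 28.3 in Cont CM, or 32.5% of it. For IL1B the excess was 8.12 FPKM in TIS CM and 18 in Cont CM, or 45.1%.

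**Figure D2:**
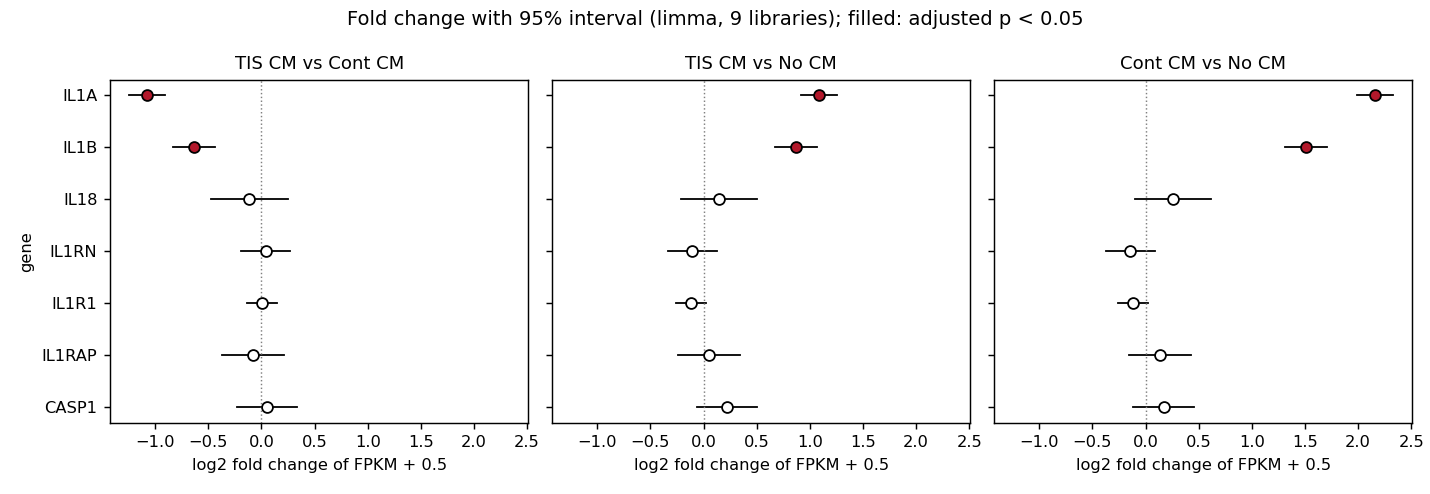
Log2 fold change of FPKM + 0.5 (horizontal axes) for the 7 tested members in the 3 comparisons, with 95% intervals from limma over all 9 libraries. Filled points passed an adjusted p of 0.05: IL1A and IL1B in each panel, below 0 for TIS CM against Cont CM and above 0 in the others. The intervals of the remaining 5 genes include 0.

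The ratio of the agonists to each other differed between the media. The ratio of IL1A to IL1B, on FPKM and so per length, was 1.01, 0.933 and 0.964 in TIS CM, 1.13, 1.54 and 1.32 in Cont CM, and 0.875, 0.786 and 0.824 in No CM. The 3 groups did not overlap, IL1B being the higher of the pair in No CM and IL1A in Cont CM. Summed, IL1A and IL1B reached 34.2 ± 3.42 FPKM in TIS CM, 63.2 ± 1.17 in Cont CM and 16.9 ± 0.622 in No CM (SD, n = 3). The agonists exceeded the antagonist transcript in every library, by 35.8 ± 6.38 times in TIS CM, 69.1 ± 8.91 times in Cont CM and 15.8 ± 1.57 times in No CM. These ratios are described without a test.

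**Figure D3:**
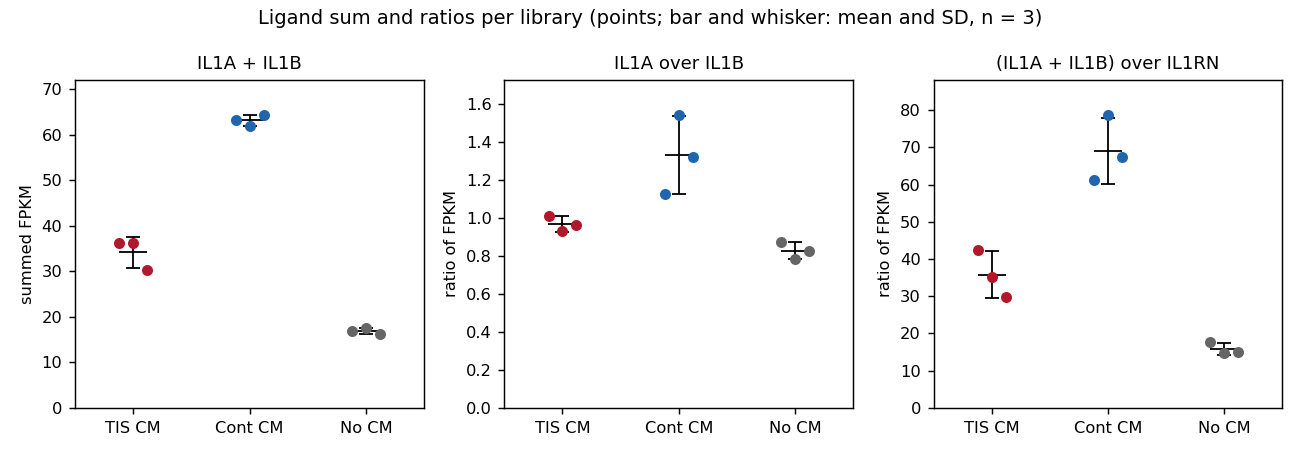
Summed FPKM of IL1A and IL1B, their ratio, and the ratio of their sum to IL1RN (vertical axes, from 0) in each library. Points are libraries, bars the mean and whiskers the SD (n = 3). In all 3 panels the groups do not overlap, with TIS CM between Cont CM and No CM.

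IL18, whose precursor caspase-1 also cleaves, did not follow IL1A and IL1B. It had 8.08, 6.62 and 7.42 FPKM in TIS CM, 10.5, 7.99 and 6.07 in Cont CM, and 6.49, 7.23 and 6.12 in No CM. The Cont CM libraries alone spanned the values of both other groups. Its log2 fold change was -0.11 in TIS CM against Cont CM (95% interval -0.47 to 0.25, limma adjusted p = 0.719), and 0.26 in Cont CM against No CM (-0.1 to 0.62, adjusted p = 0.313). IL33, an alarmin that binds the receptor encoded by IL1RL1, had 1 fragment in all 9 libraries, in Cont CM replicate 3. The 0 fragments in TIS CM and in No CM allow up to 3 fragments over the libraries of each group, counting error only.

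The antagonist IL1RN was scarce in all media. It had 0.851, 1.03 and 1.01 FPKM in TIS CM, 1.03, 0.788 and 0.955 in Cont CM, and 0.96, 1.18 and 1.08 in No CM, with 92 to 139 fragments per library. The groups overlapped. The log2 fold change was 0.04 in TIS CM against Cont CM (95% interval -0.19 to 0.27, limma adjusted p = 0.854) and -0.15 in Cont CM against No CM (-0.38 to 0.08, adjusted p = 0.371). The decoy receptor gene IL1R2 had 12 fragments in TIS CM, 16 in Cont CM and 17 in No CM, summed over 3 libraries each. Its ratio in TIS CM over Cont CM was 0.741, with an exact counting interval of 0.32 to 1.67.

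The signalling receptor gene IL1R1 (ENSG00000115594, chromosome 2, 102064544 to 102179874, plus strand) was present at a moderate level. It had 4.22, 4.65 and 4.55 FPKM in TIS CM, 4.62, 4.28 and 4.5 in Cont CM, and 5.13, 4.49 and 5.05 in No CM. The log2 fold change was 0.00 in TIS CM against Cont CM with a 95% interval of -0.14 to 0.14 (limma adjusted p = 0.991). This was the narrowest interval of the 7 tested members, and it spans ratios of 0.908 to 1.1. Against No CM, IL1R1 had log2 fold changes of -0.12 in TIS CM (adjusted p = 0.46) and -0.12 in Cont CM (adjusted p = 0.239). IL1R1 shares 11 exon bases with the antisense gene IL1R1-AS1, which had a mean of 0.244 FPKM.

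The co-receptor gene IL1RAP (ENSG00000196083, chromosome 3, 190514051 to 190659750) had 1.79, 1.68 and 1.46 FPKM in TIS CM, 1.37, 2.05 and 1.93 in Cont CM, and 1.8, 1.39 and 1.51 in No CM. Cont CM replicate 1 lay below every TIS CM library and Cont CM replicates 2 and 3 above them all. The log2 fold change in TIS CM against Cont CM was -0.08 (95% interval -0.37 to 0.21, limma adjusted p = 0.753). Both signalling chains were lower in FPKM than the agonist transcripts in every medium, on a scale corrected for gene length.

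IL1RL1, the receptor for interleukin-33, was close to the limit of detection and lowest in TIS CM. It had 2, 1 and 0 fragments in TIS CM, 8, 15 and 6 in Cont CM, and 6, 6 and 3 in No CM. The TIS CM libraries lay below all others, while Cont CM and No CM met at 6 fragments. The ratio in TIS CM over Cont CM was 0.102 with an exact interval of 0.0199 to 0.33 that covers counting error only and not the spread between libraries. In limma without a filter on low values IL1RL1 did not pass over 29649 genes (log2 fold change -0.12, adjusted p = 0.162). That fit adds 0.5 FPKM to levels of at most 0.0728, which shrinks any difference, so it cannot decide whether IL1RL1 differed. It shares 95 exon bases with IL18R1, the interleukin-18 receptor gene on the same strand, whose mean was 0.0856 FPKM, so the division of fragments within the pair is uncertain.

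CASP1 (ENSG00000137752, chromosome 11, 105025443 to 105035250) stood near 1 FPKM. It had 1.15, 1 and 0.899 FPKM in TIS CM, 0.885, 0.807 and 1.22 in Cont CM, and 0.688, 0.915 and 0.803 in No CM. Cont CM replicate 3 was the highest library and the groups overlapped in TIS CM against Cont CM. The log2 fold change was 0.05 in that comparison (95% interval -0.23 to 0.34, limma adjusted p = 0.843) and 0.22 in TIS CM against No CM (-0.06 to 0.51, adjusted p = 0.495). CARD16, which encodes a decoy related to the recruitment domain of caspase-1, is a close relative of the start of CASP1 and had 1.14 ± 0.287 FPKM in TIS CM, 1.3 ± 0.187 in Cont CM and 1.11 ± 0.125 in No CM (SD, n = 3), so the division of fragments within the pair is uncertain.

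Members of the family outside the set were mostly not detected at 0.5 FPKM. Of 7 further ligands and soluble inhibitors only IL18BP, which binds and neutralizes interleukin-18, was tested, with 1.34 ± 0.257 FPKM in TIS CM, 1.18 ± 0.16 in Cont CM and 1.29 ± 0.326 in No CM (SD, n = 3), and it was called in 0 comparisons. Of 6 further receptor genes 3 were tested. SIGIRR, which encodes an inhibitory receptor of the family, stood at 1.32 ± 0.0596 FPKM in TIS CM, 1.25 ± 0.111 in Cont CM and 1.67 ± 0.129 in No CM. It fell 1.24-fold in Cont CM against No CM (limma adjusted p = 0.031) and was the only call among these 3 genes. The call was lost without TIS CM replicate 2, Cont CM replicate 2 or 3, or No CM replicate 1 or 3 (adjusted p up to 0.108).

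Of 17 listed genes that carry the signal from the receptor, 16 were tested. Between TIS CM and Cont CM, 1 was higher and 2 were lower (median log2 fold change -0.06, against 0.00 over all tested genes, of which 2.9% were called higher and 1.57% lower). TAB2 and TAB3, adaptors of the kinase TAK1, fell 1.18-fold each. TAB2 had 16.3, 17.1 and 17.2 FPKM in TIS CM, against 20.1, 20.2 and 19.5 in Cont CM. ECSIT, an adaptor that binds TRAF6, rose 1.21-fold, with 16.1 ± 0.333 FPKM in TIS CM and 13.2 ± 0.975 in Cont CM (SD, n = 3). Without any single TIS CM library, or without Cont CM replicate 2, the list held 0 calls in this comparison. The TAB3 and ECSIT calls were lost without any 1 of 8 and of 7 libraries (adjusted p up to 0.149 and 0.136). With the trend with GC content and length removed, the log2 fold change of ECSIT was 0.164 (adjusted p = 0.329).

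In Cont CM against No CM, 5 signalling genes were higher and 1 was lower among the 16 (median 0.12, against 0.00 over all tested genes, of which 7.77% were called higher and 8.56% lower). IRAK1, IRAK2 and IRAK4, kinases recruited to the receptor complex, were 1.15, 1.15 and 1.22-fold higher, and TAB2 and TAB3 rose 1.2 and 1.21-fold. MAP3K3, a kinase of the MAP kinase cascades, fell 1.13-fold. The TAB2 call held without any single library. Those of TAB3 and IRAK2 were lost without No CM replicate 3, that of IRAK1 without No CM replicate 1 or 3, and those of IRAK4 and MAP3K3 without any 1 of 8 and of 7 libraries (adjusted p up to 0.115 and 0.133). Limma called 0 of the 16 in TIS CM against No CM (median 0.05), where 0.855% of all tested genes were called. Voom on the recovered fragments also called 0, against 245 over all tested genes. At an unadjusted p under 0.05, 2 of the 16 passed, against 1889 of all 13912 tested genes. MYD88, the adaptor that links receptor and kinases, had log2 fold changes of -0.08 in TIS CM against Cont CM, 0.03 in TIS CM against No CM and 0.11 in Cont CM against No CM, and was called in none.

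The inflammasome, processing and release list had 14 of 19 genes tested. PYCARD and GSDMD were higher in TIS CM than in Cont CM and 0 genes were lower (median -0.03), where 2.9% of all tested genes were called higher and 1.57% lower. PYCARD encodes the adaptor that joins sensors to caspase-1, and had 6.01, 5.41 and 5.8 FPKM in TIS CM, against 4.23, 4.5 and 4.36 in Cont CM. It rose 1.28-fold (0.36 on the log2 scale with an SE of 0.06, limma adjusted p = 0.0242). GSDMD, which encodes the membrane pore through which mature interleukin-1 beta leaves, rose 1.22-fold, to 8.58 ± 0.465 FPKM in TIS CM, against 6.95 ± 0.51 in Cont CM (SD, n = 3). As with the signalling list, 0 calls were left without any single TIS CM library or without Cont CM replicate 2, and 0 after the trend with GC content and length was removed. The GSDMD call was lost without any 1 of 8 libraries (adjusted p up to 0.139).

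NLRP3, the sensor whose transcript is induced before inflammasome assembly, had 1.76, 1.86 and 1.91 FPKM in TIS CM, 2.38, 2.21 and 2.03 in Cont CM, and 1.25, 1.13 and 1.37 in No CM. The order of the groups was that of IL1A and IL1B, without overlap. It rose 1.55-fold in Cont CM against No CM (0.63 on the log2 scale with an SE of 0.08, limma adjusted p = 0.00147) and 1.34-fold in TIS CM against No CM (adjusted p = 0.0488). The call in TIS CM against No CM was lost without any 1 of 8 libraries, all but Cont CM replicate 1 (adjusted p between 0.0651 and 0.2). Its log2 fold change in TIS CM against Cont CM was -0.2 (adjusted p = 0.159). CASP4, a sensor of intracellular lipopolysaccharide, rose 1.24-fold in Cont CM against No CM, and PYCARD and GSDMD fell 1.36 and 1.23-fold in that comparison. The calls of NLRP3 and PYCARD there held without any single library, that of GSDMD was lost without No CM replicate 3 (adjusted p = 0.0666), and that of CASP4 without any 1 of 7 libraries (up to 0.12).

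**Figure D4:**
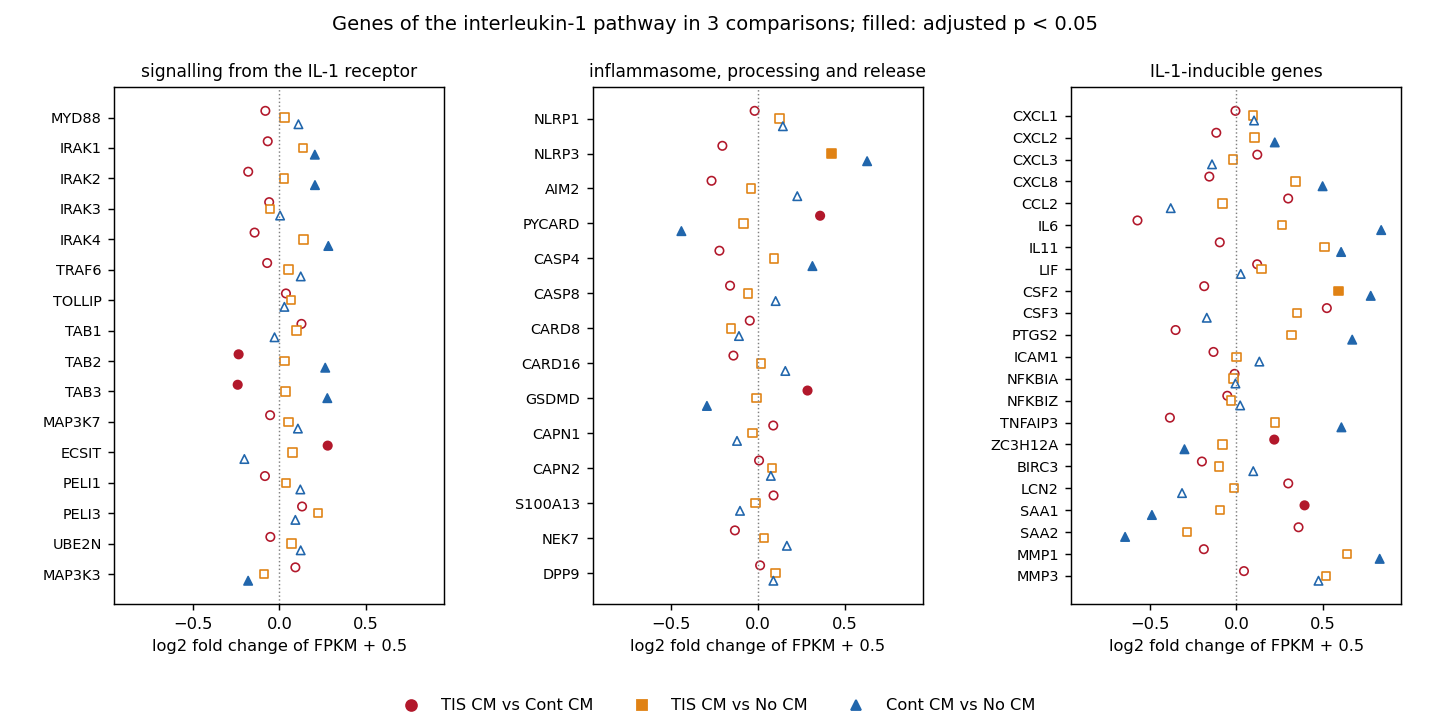
Log2 fold change of FPKM + 0.5 (horizontal axes) of the tested genes of 3 lists in the 3 comparisons. Circles are TIS CM against Cont CM, squares TIS CM against No CM and triangles Cont CM against No CM, filled where the adjusted p was under 0.05. Most filled points are triangles, such as IL6, CSF2 and PTGS2 to the right and SAA2 to the left.

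Genes known to be induced by interleukin-1 did not all move with IL1A and IL1B. Of 24 listed, 22 were tested, CCL20 lying below the limit and SOD2 being split over more than one row. In Cont CM against No CM, where IL1A and IL1B rose most, 11 were called, 8 higher and 3 lower (median 0.1). Over all tested genes the median was 0.00, with 7.77% called higher, 8.56% lower and 16.3% in either direction. The 8 lay above 0 in TIS CM against No CM. In TIS CM against Cont CM they lay below 0, from -0.57 for IL6 to -0.1 for IL11, and none was called. They were picked by Cont CM and No CM libraries that these comparisons share. In Cont CM against No CM, the acute-phase genes SAA1 and SAA2 fell 1.4 and 1.56-fold, and the RNase gene ZC3H12A fell 1.23-fold. Not all cytokine and chemokine genes of the list rose there. CCL2, CSF3 and CXCL3 had log2 fold changes of -0.38, -0.17 and -0.14, and LIF and CXCL1 0.02 and 0.1, none of them called. The cytokine genes IL6, CSF2 and IL11 and the collagenase gene MMP1 had log2 fold changes of 0.83, 0.77, 0.6 and 0.82. PTGS2, the inducible cyclooxygenase gene, had 1.75, 1.34 and 1.36 FPKM in Cont CM, against 0.688, 0.648 and 0.918 in No CM, and rose 1.59-fold (limma adjusted p = 0.00576). TNFAIP3, which restrains NF-kB, rose 1.52-fold and CXCL8 1.41-fold. The IL6 value rested in part on Cont CM replicate 1, at 98.5 FPKM, where replicates 2 and 3 had 52.3 and 53.6. Without that library its log2 fold change was 0.54. The IL6 call was lost without any single No CM library (adjusted p up to 0.0748), and that of MMP1 without any of these or Cont CM replicate 2 or 3 (up to 0.084). Those of CSF2, IL11, PTGS2, TNFAIP3, CXCL8, SAA1, SAA2 and ZC3H12A held without any single library.

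In TIS CM against Cont CM, where IL1A and IL1B fell, 2 of the 22 inducible genes were higher and 0 lower (median -0.03), where 2.9% of all tested genes were called higher and 1.57% lower. At an unadjusted p under 0.05, 10 of the 22 passed, against 3249 of all 13912 tested genes. Among these 10, SAA1, SAA2, ZC3H12A and CSF3 were higher, and IL6, TNFAIP3, PTGS2, BIRC3, CXCL8 and CXCL2 were lower. Voom on the recovered fragments called 4 of the 22, against 1086 over all tested genes. Those called by limma were SAA1, which rose 1.31-fold, and ZC3H12A, which rose 1.16-fold. TNFAIP3 had 4.81, 4.66 and 4.89 FPKM in TIS CM, against 7.27, 6.19 and 5.79 in Cont CM, and missed the threshold (log2 fold change -0.38, limma adjusted p = 0.0578). Neither did IL6 pass, at a log2 fold change of -0.57 (adjusted p = 0.134), nor PTGS2 at -0.35 (0.109), nor BIRC3, which encodes an inhibitor of apoptosis, at -0.2 (0.0731). CSF3, which encodes granulocyte colony-stimulating factor, had 0.52 (0.2) and the chemokine gene CXCL1 -0.01 (0.958). Across the alternatives this list had between 0 and 4 calls, and 0 without any single TIS CM library, Cont CM replicate 2, or No CM replicate 1 or 2. The SAA1 and ZC3H12A calls were each lost without any 1 of 8 libraries (adjusted p up to 0.149 and 0.148). With the trend with GC content and length removed, the log2 fold change of ZC3H12A was 0.103 (adjusted p = 0.359). In TIS CM against No CM, 0.403% of all tested genes were called higher and 0.453% lower. CSF2, which encodes granulocyte-macrophage colony-stimulating factor, was the only call among the 22 there (median 0.1). It had 78.9, 70.7 and 66.5 FPKM in TIS CM, against 46.8, 48 and 48.1 in No CM, and rose 1.5-fold (adjusted p = 0.0287). Its call was lost without any single TIS CM or No CM library (adjusted p between 0.0795 and 0.135).

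Genes next to the ligand cluster were examined by position. Within 500 kb of the stretch from IL1A to IL1RN, 15 other genes passed the expression limit. Limma called 0 of them in TIS CM against Cont CM, and their log2 fold changes lay between -0.19 and 0.15. With 4.48% of all tested genes called, a count of 0 among 15 is near that share. At an unadjusted p under 0.05, 0 of the 15 passed, against 3249 of all 13912 tested genes. Voom on the recovered fragments called 0 of the 15, against 1086 over all tested genes. In Cont CM against No CM 1 was called, the antisense gene PAX8-AS1, which was 1.3-fold higher, where 16.3% of all tested genes were called. There 4 of the 15 had an unadjusted p under 0.05, against 4361 of all 13912 tested genes. Voom called 3 of the 15 in that comparison, against 2695 over all tested genes. CKAP2L, the nearest tested gene beyond IL1A and a gene of the mitotic spindle, had a log2 fold change of -0.01 in TIS CM against Cont CM. Around the receptor cluster from IL1R2 to IL18RAP, 4 tested genes other than IL1R1 had log2 fold changes between -0.19 and 0.13 in TIS CM against Cont CM. Limma and voom called 0 of these 4, and 1 had an unadjusted p under 0.05.

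The protein-coding genes whose standardised log2 profile over the 9 libraries lay nearest to IL1A, among 10468 with a mean of at least 1 FPKM, were SMURF2, SRGN, SAMD12, CCDC80, AOX1 and LAMB1, at root mean square differences of 0.111 to 0.17 SD. The median gene lay at 1.33, and IL1B lay at 0.175 from IL1A. SRGN, which encodes the proteoglycan serglycin, had 72.7 ± 3.13 FPKM in TIS CM, 90.8 ± 3.84 in Cont CM and 53.4 ± 0.557 in No CM (SD, n = 3). Nearest to IL1B were MGLL, FYN, SMURF2, FSTL1, COL8A1 and PEA15, at 0.111 to 0.197. MGLL, which encodes monoglyceride lipase, had 8.22 ± 0.139 FPKM in TIS CM, 10.3 ± 0.478 in Cont CM and 6.13 ± 0.208 in No CM. SMURF2, a ubiquitin ligase gene of TGF-beta signalling, was on both lists, with 53.5 ± 1.47 FPKM in TIS CM, 63.2 ± 0.536 in Cont CM and 44.5 ± 1.63 in No CM. Standardising removes the size of a change, which was smaller in these genes than in IL1A.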

How the data were processed

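RNA sequencing of 9 libraries was analysed from FPKM values that the authors deposited in a single gene table. The submitters' processing notes name fastp, HISAT2 2.0.5, featureCounts 1.5.0-p3 and DESeq2 1.20.0, with no role or order. The sources used here do not state the strand setting. Fragment numbers were recovered from the steps of the FPKM values (whole within 0.01 fragment). Genes with a mean of at least 0.5 FPKM (13912) entered limma 3.58.1 in R 4.3.3 on log2(FPKM + 0.5), with group means over all 9 libraries, a trended prior and Benjamini-Hochberg adjustment over all tested genes, called at an adjusted p under 0.05. Fold changes are on that scale, which understates changes of low genes. Intervals are 95%.

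The 10 members and the gene lists were chosen with earlier results of these data known. Named genes are all members; list genes called in TIS CM against Cont CM; up to 4 per direction, list and comparison otherwise, by size of change; and the 6 genes nearest in profile to IL1A and to IL1B. Genes named beyond these (such as MYD88, TNFAIP3, IL6, PTGS2, BIRC3, CSF3 and CXCL1 in TIS CM against Cont CM, CASP1's relative CARD16, and list genes past the first 4) were chosen after their values were seen. Ratios, lists and neighbours were described without a set test. The fit was tested on simulated counts that had the same spread setting for every gene. They held no outlying library and no GC or length trend, so this does not cover those features of the real libraries. Alternatives were other pseudocounts, filters and scalings, voom, only the groups compared, a replicate block, leaving out each library, and removal of GC and length trends, the last chosen after seeing the data.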

Additional observations from a re-analysis of the deposited data

How the results depend on the processing

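IL1A kept its direction and its call in all 3 comparisons under all 19 alternatives, with log2 fold changes of -1.13 to -0.99 in TIS CM against Cont CM, 1.03 to 1.17 in TIS CM against No CM and 2.1 to 2.24 in Cont CM against No CM. IL1B kept its direction under all 19, and its call under 17, 18 and 19 in the same order of comparisons. Members called in TIS CM against Cont CM numbered 1 with only the 2 groups compared and 1 to 2 without single libraries. In TIS CM against No CM only IL1A was called with the replicate block, 1 member, and the adjusted p of IL1B was 0.0532.

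Over all genes, TIS CM against Cont CM had 207 calls without a filter on low values, 1086 with voom, 33 with only the 2 groups compared, 126 with the replicate block, 163 with the GC content and length trend removed, and 11 to 1084 without single libraries, against 623 as reported. TIS CM against No CM had 46 without a filter, 245 with voom, 331 with only the 2 groups compared, 4 with the replicate block and 9 to 365 without single libraries, against 119. Cont CM against No CM had 1242 with only the 2 groups compared, 1461 with the replicate block and 1075 to 2770 without single libraries, against 2272. The cause of these shifts was not tested. Same-numbered libraries had correlations of deviations between -0.187 and 0.0838, and other-numbered ones between -0.129 and 0.201. The numbers thus gave no sign of pairing, which the labels do not state and so few libraries cannot exclude.

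Signs that turned were all of values that passed no test. In TIS CM against Cont CM, the log2 fold change of IL1R1 was -0.021 with equal library sums and -0.00688 with quantile normalization. Without single libraries it ranged from -0.026 to 0.038 for IL1R1, -0.031 to 0.097 for IL1RN, -0.22 to 0.0048 for IL1RAP, -0.30 to 0.071 for IL18 and -0.027 to 0.17 for CASP1. In TIS CM against No CM it ranged from -0.0055 to 0.13 for IL1RAP. Depth limits IL1R2, IL1RL1 and IL33 to their fragment numbers.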
